A study of Mus musculus with 8 samples.

Results

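Toll-like receptors sense microbial products and pass the signal on through a small set of shared proteins, and the mRNAs of 10 of these shared genes were examined in lung neutrophils. The genes were taken by name: the co-receptors Cd14 and Ly96, the adaptors Tirap, Myd88, Ticam2 and Ticam1, the kinases Irak4, Irak1 and Irak2, and the ubiquitin ligase Traf6. A row of the array table was matched for 9 of the 10, out of 19836 symbols with a row in all, and no gene had more than 1. No row was matched for Irak2, which was not analysed here.

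Total RNA from 8 samples was hybridised to Affymetrix Mouse Gene 1.1 ST arrays, 1 array per sample. Wild-type C57BL/6J mice received either PBS (4 samples) or a suspension of Streptococcus pneumoniae in PBS (SP, 4 samples). Both were instilled into the left lung through the trachea at 2.3 µl per g body weight. The mice were 6 to 12 weeks old per the labels, and the study's methods give a narrower range. Per the methods, female mice were bought, colonies were bred from them, and the mice studied were matched for sex. At 24 h the lungs were digested, and cells that bound an antibody to Ly6G, a surface protein of mouse neutrophils, were collected on magnetic beads. Purity was judged on stained cytospins, and per the methods only in the pneumonia samples. The methods report a high purity there, with few other cells, which mostly looked like alveolar macrophages. They also state that Ly6G mRNA was high in all samples.

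Most Toll-like receptors recruit Myd88, in part through the bridging adaptor Tirap. Myd88 gathers Irak4, Irak1 and Irak2, which engage Traf6, and the chains of ubiquitin that Traf6 builds activate the kinase Map3k7 and then NF-κB. Tlr4 and Tlr3 can instead signal through Ticam1, reached by Tlr4 with the help of Ticam2, towards Traf3, Tbk1 and interferon genes. Cd14 and Ly96 act at the start of the chain for bacterial lipopolysaccharide, which Cd14 hands to the complex of Ly96 and Tlr4. Streptococcus pneumoniae is a Gram-positive bacterium and does not make lipopolysaccharide.

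Traf6, Ticam2, Ly96 and Myd88 were higher in SP than in PBS samples, and Irak4 was lower. Traf6 differed by 4.55-fold, Ticam2 by 2.24-fold, Ly96 by 2.00-fold and Myd88 by 1.46-fold, and Irak4 was lower by 1.58-fold. Cd14, Tirap, Ticam1 and Irak1 did not pass the test. All levels below are deposited log2 values, 1 unit is a doubling, and a difference is the SP mean minus the PBS mean. A gene was called when its p from limma, adjusted over all 24625 rows, was at most 0.05 (n = 4 in each group), and these p-values measure the spread between the samples as given. The labels do not state that the samples came from separate mice, and the study describes each as taken from a mouse.

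The 9 genes stood as follows against the whole table. Of the 9, 5 were called (55.6%), against 44.1% of all rows. In the upward direction 4 were called (44.4%) against 21.5% of rows, and in the downward direction 1 was called (11.1%) against 22.6% of rows. At least 2-fold higher were 3 (33.3%) against 6.37% of rows, and at least 2-fold lower were 0 against 11.3% of rows. The highest sample of one group lay below the lowest of the other for 5 genes (55.6%), which is close to the 49.0% of all rows. The median difference of the 9 was 0.55, and that of all rows 0.10. The count of 5 fell to 3 without PBS replicate 1 and without SP replicate 1, and the count at 2-fold fell from 3 to 1 without PBS replicate 2, where only Traf6 was left. Scaling moved the split of 4 higher and 1 lower: it was 7 and 0 with each array centred on its median, and 6 and 1 after another quantile normalization. The shares of all rows moved too. With centred arrays 57.7% of rows were called higher and 16.4% lower, with 9.64% higher and 7.7% lower by at least 2-fold. After another quantile normalization 19.6% were called higher and 21.96% lower, with 7.63% higher and 8.93% lower by at least 2-fold. The number of the 9 genes higher by at least 2-fold was 4 with centred arrays and 2 after another quantile normalization. With the rows below the median level left out, all 9 genes stayed in and 6 were called, 5 higher and 1 lower. Of the rows kept, 60.3% were called, 24.1% higher and 36.2% lower, with 11.7% higher and 20.2% lower by at least 2-fold. The number of the 9 genes higher by at least 2-fold was 3 in that fit.

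**Figure D1:**
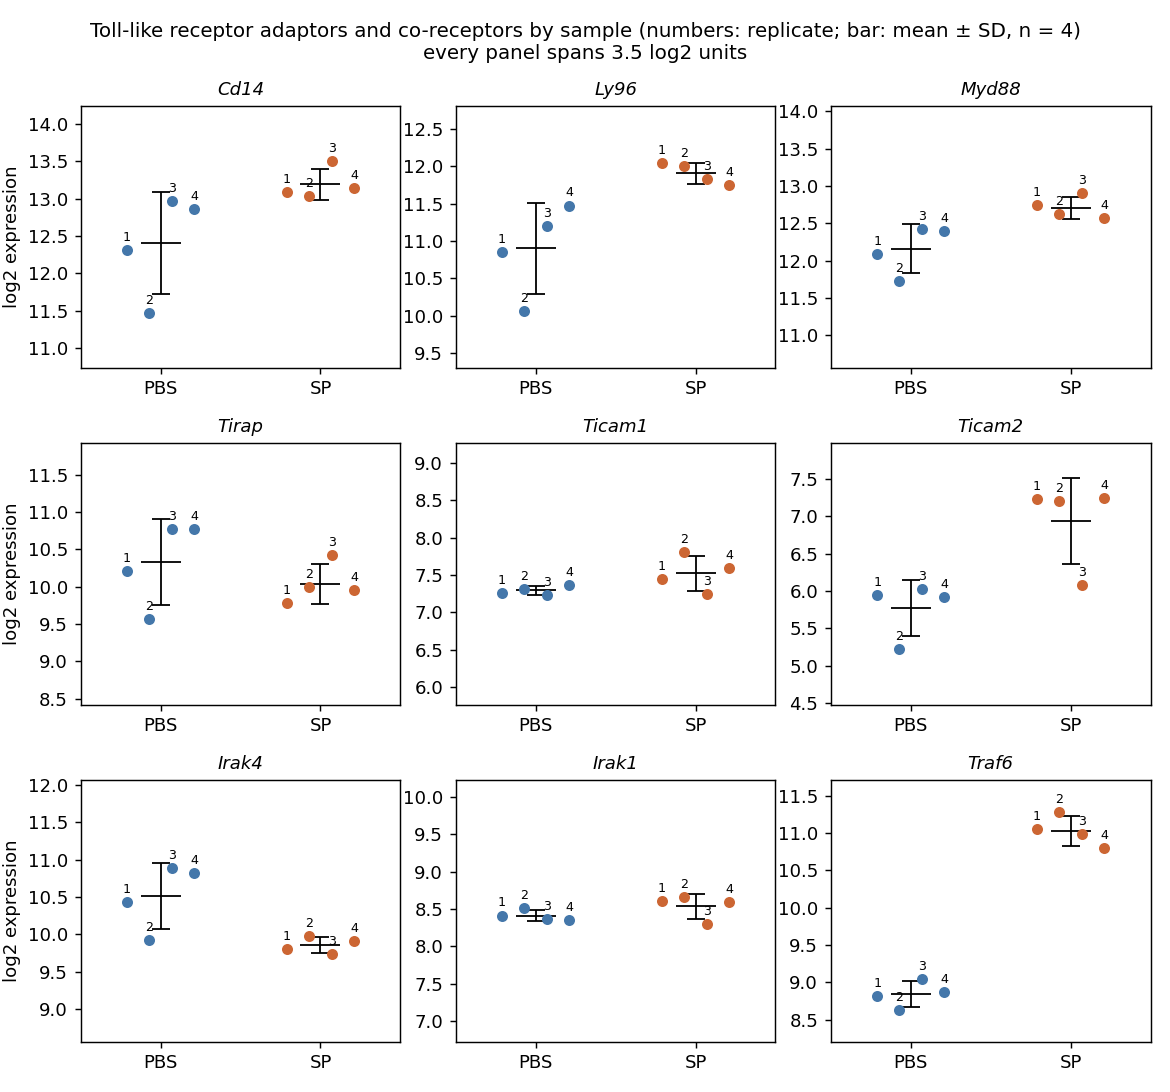
Deposited log2 level (vertical axis) of the 9 genes in each of the 4 PBS and 4 SP samples, 1 panel per gene; points are samples, numbered by replicate, and bars are mean ± SD (n = 4). The SP points of Traf6 (10.80 to 11.28) lie far above its PBS points (8.63 to 9.05), and those of Tirap and Irak1 overlap.

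Several properties of the samples bear on these values. The arrays did not share a median, which was 6.06 to 6.20 in PBS and 5.78 to 5.91 in SP samples. In these bulk samples, fewer cells of a type and less RNA per cell cannot be told apart. Of 11 neutrophil markers, 3 were lower in SP samples (27.3%, near the 22.6% of all rows) and 0 were higher, none by 2-fold. Their summed levels were 133 to 137 in PBS and 128 to 140 in SP samples, where replicate 3 was the highest. SP replicates 1, 2 and 4 (129.7, 127.8 and 131.9) lay below every PBS sample. The brightest neutrophil marker, Retnlg, a secreted protein of neutrophil granules, was lower by 0.47 (adjusted p = 0.0418). That call was lost under 10 of 18 alternative settings, among them the omission of any 1 sample other than SP replicate 3. S100a8, a calcium-binding protein abundant in neutrophils, had a difference of -0.18 (adjusted p = 0.211), which turned positive with arrays centred on their median (0.099). With arrays centred on the neutrophil markers it was 0.056, a value relative to a list that includes S100a8 itself. Of 12 markers of monocytes and interstitial macrophages, 5 were higher (41.7%, against 21.5% of all rows) and 7 not called. Their summed levels were 100.3 to 110.2 in PBS and 101.1 to 117.3 in SP samples, where replicate 3 was the lowest. SP replicates 1, 2 and 4 (113.7, 113.1 and 117.3) lay above every PBS sample. Their brightest genes were the Fc receptor Fcgr4, higher by 1.57 (limma adjusted p = 0.00698), and the growth factor receptor Csf1r, with a difference of 0.73 (limma adjusted p = 0.0547). Among the 7 not called, Mertk, Apoe, C1qc and Cx3cr1 had negative differences (-0.69, -0.35, -0.30 and -0.12). Those of C1qa and C1qb were 0.02 and 0.13. Markers of ciliated cells (9 of 9), alveolar type 2 cells (7 of 9), endothelium (8 of 10), B cells (6 of 7) and alveolar macrophages (5 of 9, with 2 higher) were called lower in SP samples. Called lower were 55.6% to 100% of the genes in these lists and 22.6% of all rows. These markers are on a log2 scale on which the lowest value of any row was 3.64, so values above 0 do not show detection. The part of other cells in the values of the 9 genes was not tested.

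Of the co-receptors, Ly96 was called and Cd14 was not. Ly96, which encodes MD-2, the protein that binds lipopolysaccharide in the pocket beside Tlr4, measured 10.86, 10.07, 11.21 and 11.48 in the PBS samples and 12.04, 12.00, 11.83 and 11.76 in the SP samples. Every SP sample was above every PBS sample, and PBS replicate 2 was the lowest of the 8. The means were 10.90 ± 0.61 and 11.91 ± 0.14 (SD, n = 4), a difference of 1.002 (SE 0.27, 95% confidence interval 0.38 to 1.62, limma adjusted p = 0.0182). Ly96 was called under all 18 alternatives. Without PBS replicate 2 the difference was 0.72 and no longer 2-fold, and it also fell just under 1 log2 unit without PBS replicate 1 (0.99), SP replicate 1 (0.96) and SP replicate 2 (0.97). It was 0.80 after another quantile normalization and 0.81 with array weights, likewise below 2-fold.

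Cd14, the co-receptor that collects lipopolysaccharide at the cell surface, measured 12.31, 11.47, 12.97 and 12.87 in the PBS samples and 13.09, 13.04, 13.50 and 13.15 in the SP samples. The groups did not overlap, although the lowest SP sample was only 0.066 above PBS replicate 3, and PBS replicate 2 lay well below the other 7. The means were 12.41 ± 0.69 and 13.19 ± 0.21, a difference of 0.79 (SE 0.31, 95% confidence interval 0.08 to 1.50). The limma adjusted p of 0.0684 missed the threshold, and Cd14 was called under 6 of the 18 alternatives. Among these were the fit with the replicate number as a block (adjusted p = 0.0385) and the fit without PBS replicate 3 (0.98, adjusted p = 0.0400). Without PBS replicate 2 the difference shrank to 0.48 (adjusted p = 0.0816). Across the 18 alternatives the adjusted p lay between 0.0147 and 0.139.

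The promoters of Myd88, Ticam1 and Irak1 hold the motif matches found among these genes, and a stretch before the start of Traf6, the gene with the largest difference, is shown beside them. Sequences are from RefSeq, mouse assembly GRCm38.p6, where 7 of the 10 genes had a promoter window of 250 bases before to 50 after the start of transcription. Each window was searched on both strands for the NF-κB consensus and for the core GAAANNGAA of interferon-stimulated response elements, which bind Irf proteins. Of 32851 windows in the table, 11.2% held the first and 8.56% the second. The stretches below are written 5′ to 3′ on the strand of the gene, end at the base before the start or further upstream, and have matches in capitals.
Myd88, chr9:119340019-119340093, minus strand: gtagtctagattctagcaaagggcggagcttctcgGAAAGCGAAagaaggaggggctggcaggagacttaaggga
Ticam1, chr17:56276919-56276998, minus strand: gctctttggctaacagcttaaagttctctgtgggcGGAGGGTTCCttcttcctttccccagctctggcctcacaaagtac
Irak1, chrX:74023922-74023974, minus strand: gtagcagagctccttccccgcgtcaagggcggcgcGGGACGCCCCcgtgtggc
Traf6, chr2:101678320-101678419, plus strand: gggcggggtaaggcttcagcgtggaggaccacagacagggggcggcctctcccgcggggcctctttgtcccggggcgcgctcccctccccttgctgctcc
In Myd88 the capitals mark an interferon response core at bases -40 to -32. In Ticam1 and Irak1 they mark an NF-κB consensus at bases -196 to -187 and -18 to -9. No match to these letters was found in the windows of Tirap, Irak2, Irak4 and Traf6. A match is a description of the letters and not a binding site.

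Myd88, the adaptor shared by most Toll-like receptors and by receptors of the interleukin 1 family, was higher in SP samples. It measured 12.09, 11.73, 12.43 and 12.40 in the PBS samples and 12.74, 12.62, 12.90 and 12.57 in the SP samples. The groups did not overlap, and the gap between them was small, since the lowest SP sample was 0.14 above the highest PBS sample. The means were 12.16 ± 0.32 and 12.71 ± 0.15, a difference of 0.55 (SE 0.16, 95% confidence interval 0.18 to 0.92, limma adjusted p = 0.0261). Myd88 was called under 13 of the 18 alternatives, whose adjusted p ranged from 0.00506 to 0.0682. The call was lost without PBS replicate 1 (0.0682), without SP replicate 1 (0.0624) and without SP replicate 3 (0.0558), each by a narrow margin. The difference was positive under all 18.

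Tirap, which bridges Tlr2 and Tlr4 to Myd88 at the membrane, did not rise with Myd88. It measured 10.22, 9.57, 10.77 and 10.77 in the PBS samples and 9.78, 9.99, 10.42 and 9.96 in the SP samples. The groups overlapped, and the PBS samples were spread more widely, with replicate 2 the lowest of the 8. The difference was -0.29 (SE 0.27, 95% confidence interval -0.92 to 0.34, limma adjusted p = 0.382). The difference hung on single samples: it was -0.55 without PBS replicate 2 (adjusted p = 0.0624), and Tirap was called lower under 2 of the 18 alternatives, array weights and the joint omission of PBS replicate 2 and SP replicate 3. Over the 18 alternatives its adjusted p ran from 0.0162 to 0.972, and with centred arrays the difference was -0.013.

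Ticam2, also known as TRAM, links Tlr4 to Ticam1 inside the cell, and it was the adaptor with the largest difference. Its levels were 5.95, 5.22, 6.02 and 5.92 in the PBS samples and 7.24, 7.21, 6.07 and 7.24 in the SP samples. The groups did not overlap, but SP replicate 3 lay 1.13 below the next SP sample and only 0.052 above the highest PBS sample. The means were 5.77 ± 0.37 and 6.94 ± 0.58, a difference of 1.16 (SE 0.30, 95% confidence interval 0.48 to 1.85, limma adjusted p = 0.0142). Ticam2 was called under all 18 alternatives. The difference was 1.45 without SP replicate 3 and 0.98, below 2-fold, without PBS replicate 2. SP replicate 3 was also the SP sample with the lowest summed level of the monocyte and macrophage markers (0.85 below the SP mean per gene). It had the highest summed level of the neutrophil markers (0.73 above the SP mean per gene), unevenly over the list. Camp (10.94, against 7.60 to 8.17 in the other SP samples) and Ltf (12.10, against 9.69 to 10.22) stood out. Csf3r (12.67) was lowest in that sample, and the other neutrophil markers were highest there. The part of this in the Ticam2 value was not tested.

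Ticam1, also known as TRIF, carries the branch of Tlr3 and Tlr4 that leads to interferon genes. It measured 7.26, 7.32, 7.23 and 7.37 in the PBS samples and 7.44, 7.80, 7.25 and 7.59 in the SP samples. The PBS samples were close together, and SP replicate 3 fell among them. The difference was 0.23 (SE 0.12, 95% confidence interval -0.04 to 0.50, limma adjusted p = 0.142). It was called under 5 of the 18 alternatives: without SP replicate 3 (0.32, adjusted p = 0.0313), without both that sample and PBS replicate 2, with array weights, with centred arrays and after another quantile normalization, over an adjusted p of 0.000701 to 0.308.

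The kinases did not move together. Irak4, the first kinase to be drawn to Myd88, measured 10.44, 9.93, 10.89 and 10.82 in the PBS samples and 9.81, 9.98, 9.74 and 9.91 in the SP samples. PBS replicate 2 lay within the narrow range of the SP samples, and the other PBS samples lay above it. The means were 10.52 ± 0.44 and 9.86 ± 0.11, a difference of -0.66 (SE 0.20, 95% confidence interval -1.12 to -0.20, limma adjusted p = 0.0298). The call held under 9 of the 18 alternatives and was lost without PBS replicate 1, 3 or 4 and without SP replicate 1 or 3 (adjusted p = 0.0577 to 0.0767). It was also lost with the replicate number as a block (0.0541) and with centred arrays (-0.38, 0.141). Without PBS replicate 2 the difference was -0.86 (adjusted p = 0.00179, within 0.00179 to 0.332 over the 18), and the direction was the same under all 18.

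Irak1, which Irak4 phosphorylates, measured 8.41, 8.51, 8.36 and 8.35 in the PBS samples and 8.61, 8.65, 8.29 and 8.59 in the SP samples. SP replicate 3 was the lowest of all 8, and the other SP samples were above every PBS sample. The difference was 0.13 (SE 0.096, 95% confidence interval -0.09 to 0.35, limma adjusted p = 0.285). Irak1 was called higher under 5 of the 18 alternatives, among them the fit without SP replicate 3 (0.21, adjusted p = 0.0372), over an adjusted p of 0.0024 to 0.491. The profile of Irak1 over the samples was the closest to that of Ticam1 among all pairs of the 9 genes, with a root mean square distance of 0.110 log2 units between profiles centred on their means (n = 8 samples).

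**Figure D2:**
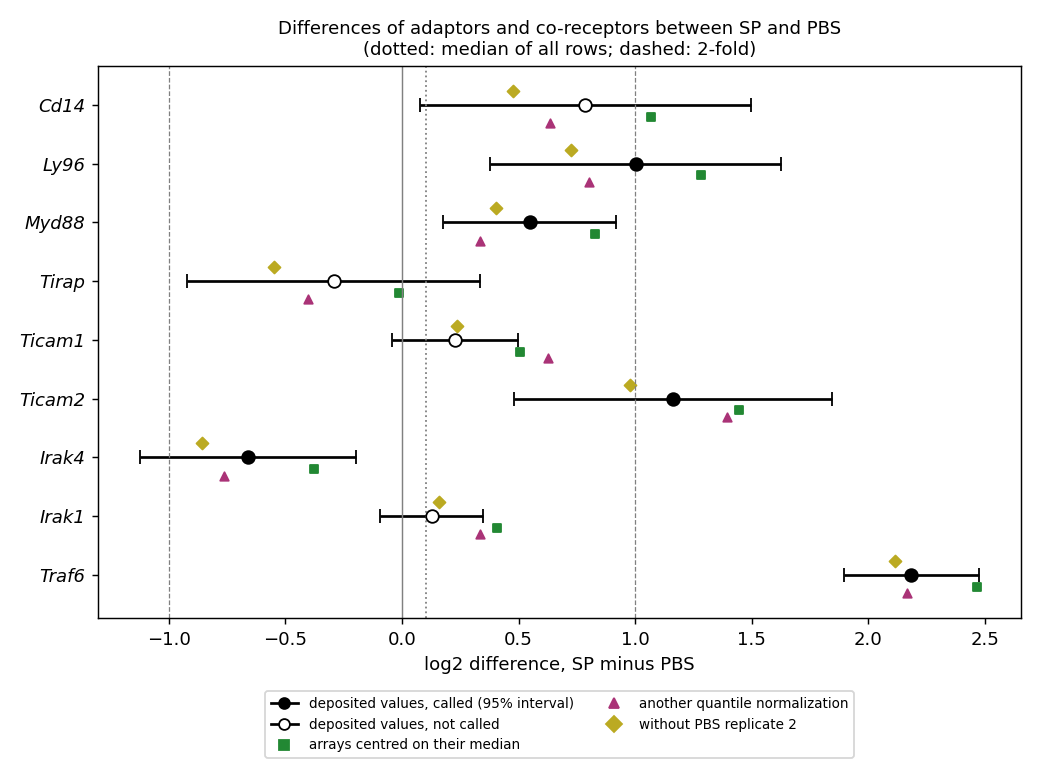
Difference of SP minus PBS in log2 units (horizontal axis) for the 9 genes, with circles for the fitted difference (filled where called), bars for its 95% confidence interval and coloured marks for 3 alternatives: centred arrays, another quantile normalization and PBS replicate 2 left out. The interval of Traf6 (1.90 to 2.47) lies above all others, and those of Tirap, Ticam1 and Irak1 hold 0; the dotted line is the median of all rows and the dashed lines are 2-fold.

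Traf6, the ubiquitin ligase on which the Irak kinases converge, had the largest difference of the 9 genes. It measured 8.82, 8.63, 9.05 and 8.87 in the PBS samples and 11.05, 11.28, 10.98 and 10.80 in the SP samples. The lowest SP sample was 1.75 above the highest PBS sample, and neither group had a sample apart. The means were 8.84 ± 0.17 and 11.03 ± 0.20, a difference of 2.19 (SE 0.13, 95% confidence interval 1.90 to 2.47, limma adjusted p = 1.07e-05). The size of this difference exceeded that of 96.0% of all rows. It lay between 2.10 and 2.47 under the 18 alternatives and was called under each. The sequence upstream of Traf6 printed above has no match to the motifs searched.

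The samples differed within a group in a way that several of the genes shared. PBS replicate 2 was the lowest PBS sample for 7 of the 9 genes, Irak1 and Ticam1 being the exceptions, and PBS replicate 3 was the highest for 6. Against the PBS mean, PBS replicate 2 was lower by 0.93 for Cd14, 0.83 for Ly96, 0.76 for Tirap, 0.59 for Irak4, 0.56 for Ticam2, 0.43 for Myd88 and 0.21 for Traf6. In the same sample the neutrophil markers averaged 0.17 and the monocyte and macrophage markers 0.44 below the PBS mean, and the markers of ciliated cells and endothelium averaged 0.55 and 0.53 above it. The part of these other cells in the low values was not tested. PBS replicate 2 and SP replicate 3 were also left out together, a choice made after the values were seen. The count of calls in that fit is therefore not independent of the values of these genes. In it 8 of the 9 genes were called, 6 higher and 2 lower, against 41.7% of all rows. Cd14 was the exception (0.37, adjusted p = 0.125).

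**Figure D3:**
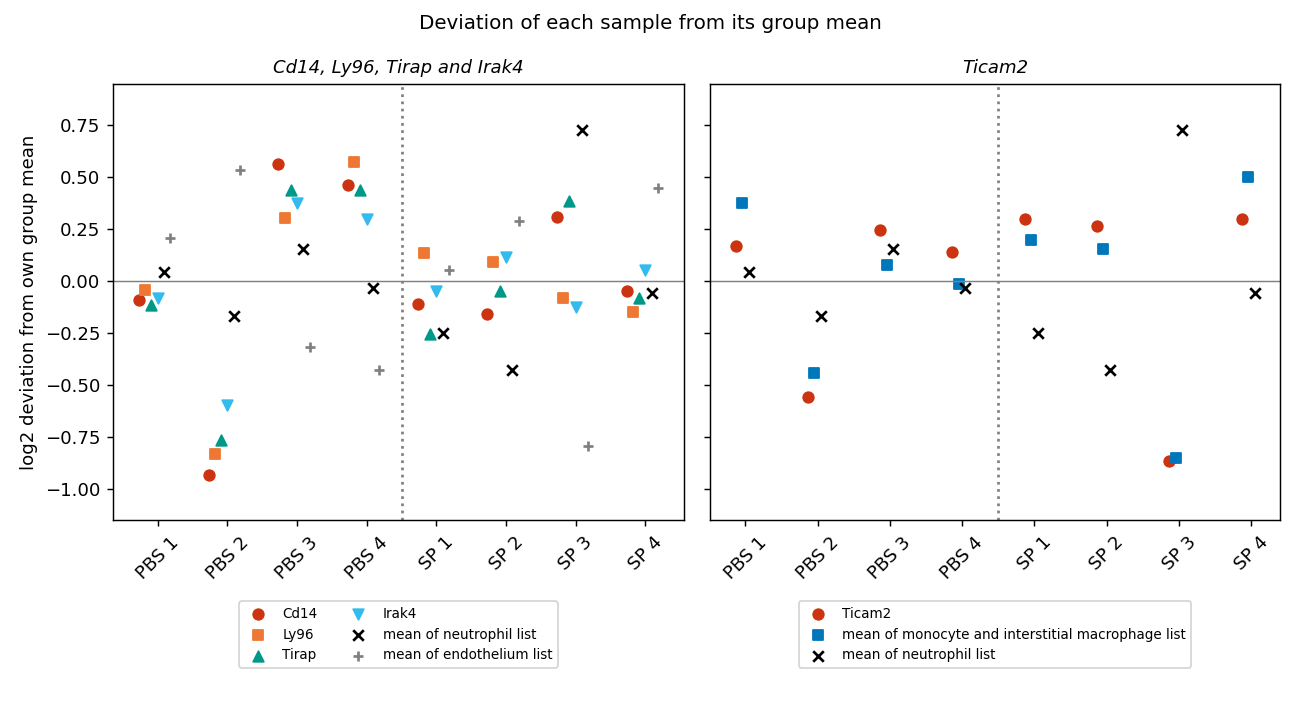
Deviation of each sample from the mean of its own group in log2 units (vertical axis) in the 4 PBS and 4 SP samples. The left panel holds Cd14, Ly96, Tirap, Irak4 and the means of the neutrophil and endothelium markers, and the right panel Ticam2 and the means of the neutrophil and the monocyte and macrophage markers. PBS replicate 2 is low for Cd14 (-0.93), Ly96 (-0.83) and Tirap (-0.76), and SP replicate 3 is low for Ticam2 (-0.86).

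The other genes of the pathway were taken as 6 lists, 64 genes with a row, some of which the study discusses from these same arrays, so the lists are not independent evidence of a direction. Of the 64, 46 were called (71.9%, against 44.1% of all rows). Called higher were 40 (62.5% against 21.5%) and lower 6 (9.4% against 22.6%). At least 2-fold higher were 28 (43.75% against 6.37%) and at least 2-fold lower were 3 (4.69% against 11.3%). Their median difference was 0.88, against 0.10 for all rows. With the rows below the median level left out, 47 of the 60 pathway genes kept were called, 40 higher and 7 lower. Of all rows kept, 60.3% were called, 24.1% higher and 36.2% lower. At least 2-fold, 28 of the 60 were higher and 3 lower, against 11.7% and 20.2% of the rows kept.

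Among the Toll-like receptors, 8 of 11 were called higher (72.7%, against 21.5% of all rows) and 1 lower (9.09% against 22.6%). Counted in the 8 are Tlr11 and Tlr12, with PBS means of 4.72 and 4.70 and SP means of 5.08 and 5.07. These 2 rows lay at or just above the level of Y-linked transcripts (4.33 to 4.90), which serve as background. Tlr9 and Tlr7, receptors of the endosome for DNA and for RNA, rose by 4.70 and 2.77 log2 units, Tlr7 from 7.92 ± 0.38 to 10.69 ± 0.19 (6.80-fold, adjusted p = 2.09e-05). Tlr2, the receptor of bacterial lipoproteins, rose by 1.74, and Tlr4, the partner of Ly96, rose by 1.51 (adjusted p = 0.000717). Tlr6, a partner of Tlr2, was higher by 1.17 (adjusted p = 0.0447), a call that held under 8 of the 18 alternatives and was lost without PBS replicate 1 or 2 (0.78 without the latter) and without any 1 of the SP samples. Tlr8, another endosomal receptor, fell by 1.50 on the log2 scale (adjusted p = 0.00629). Tlr13, a receptor for bacterial ribosomal RNA and the brightest row of the list, had a difference of 0.65 (adjusted p = 0.0541), and Tlr1 was not called. Tlr13 was called without PBS replicate 2, 3 or 4, and its difference was 0.40 without PBS replicate 2.

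Of 12 further accessory proteins, 4 were called higher (33.3%) and 3 lower (25%), against 21.5% and 22.6% of all rows. Pik3ap1, a signalling adaptor also known as BCAP, rose by 1.86 and Slc15a3, a transporter of the endolysosome, by 1.74. Cd36, a scavenger receptor that assists Tlr2 and is also abundant on endothelium and macrophages, fell by 1.84 (limma adjusted p = 0.000865). In the same comparison 8 of 10 endothelial and 5 of 9 alveolar macrophage markers were called lower. The part of those cells in the Cd36 value was not tested. Lbp, which delivers lipopolysaccharide to Cd14, had a difference of -0.91 (adjusted p = 0.00302), and Hsp90b1, a chaperone that folds Toll-like receptors, had a difference of -0.81 (adjusted p = 0.00427), both called lower. Unc93b1, which escorts the endosomal receptors, was higher by 0.97 (adjusted p = 0.00319).

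Of 6 receptors of the interleukin 1 family that use Myd88, 2 were called higher, 1 lower and 3 not at all. The 50% called was near the 44.1% of all rows. Il18r1, the binding chain for interleukin 18, fell by 1.67 (adjusted p = 1.55e-05), and its partner chain Il18rap was higher by 0.94 (adjusted p = 0.0335). Il1rl2, a receptor chain for interleukin 36, was higher by 1.20 (adjusted p = 0.0213), although its groups overlapped. Both upward calls depended on single samples. Il18rap was called under 11 and Il1rl2 under 13 of the 18 alternatives, and both were lost without PBS replicate 1 and without SP replicate 1, Il18rap also without PBS replicate 2 or SP replicate 3 and Il1rl2 without PBS replicate 3 or SP replicate 2. The brightest gene of the list, Il1rap, had a difference of 0.40 (adjusted p = 0.323).

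Genes that act with or after Traf6 were called higher in 7 of 11 cases (63.6%, against 21.5% of all rows). In 0 cases were they called lower (against 22.6%), and their median difference was 0.46. Tifa, which binds Traf6 and promotes its activity, rose 17.4-fold, from 7.14 ± 0.23 to 11.27 ± 0.21 (adjusted p = 1.18e-06). Map3k8, a kinase upstream of Erk, rose 5.64-fold and Ikbkg, the regulatory subunit of the IκB kinase, 2.24-fold. Below 2-fold were Tab2, which binds ubiquitin chains beside Map3k7 and was the brightest row (0.53, adjusted p = 0.0161), and Map3k7, Tab3 and Ube2n (0.46, 0.83 and 0.42). The 4 genes that were not called were Ube2v1, Peli3, Tab1 and Ecsit. The difference of Traf6 itself, 2.19, was thus smaller than those of Tifa and Map3k8 on the log2 scale and larger than those of the other 9.

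In the Ticam1 branch, 9 of 10 partners (90%) were called higher, each at least 2-fold, against 21.5% and 6.37% of all rows. The 10 partners had a median difference of 1.49. Ikbke and Tbk1, kinases that activate Irf3 and Irf7, rose by 4.95 and 2.54, and Traf3, which links Ticam1 to them, rose by 2.34 (5.07-fold, adjusted p = 1.02e-05). Irf7, a transcription factor of interferon genes, rose by 2.38 (5.21-fold, adjusted p = 0.00101). The exception was Irf3, a related factor, with a difference of 0.13 (adjusted p = 0.489). Ticam1 (0.23) and Irf3 (0.13) thus had small differences beside partners that rose, and both were called under some alternatives, Irf3 under 2 (centred arrays and another quantile normalization) and Ticam1 under 5.

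Of 14 genes that restrain the pathway, 10 were called higher (71.4%, against 21.5% of all rows), 8 of them at least 2-fold (57.1% against 6.37%). Called lower was 1 (7.14% against 22.6%), and the median difference was 1.08. Socs1, which restrains cytokine and Toll-like receptor signalling, rose 25.5-fold from 6.17 ± 0.45 to 10.85 ± 0.25 (adjusted p = 4.79e-06). Tnfaip3, which edits ubiquitin chains on Traf6, and its partners Tnip1 and Tnip3 rose 6.24-, 12.1- and 7.21-fold. Tnfaip3 was low in PBS replicate 2 (8.46, against 10.38 to 11.22 in the other PBS samples), and without that sample its difference was 2.03 in place of 2.64 log2 units. Trim30a, the brightest of the list and known to act on Tab2 and Tab3, was higher by 0.81 (adjusted p = 0.0277), a call lost without PBS replicate 1 and without SP replicate 1 or 2. Irak3, a kinase relative that blocks the release of Irak1 and Irak4 from Myd88, rose from 9.89 ± 0.75 to 12.36 ± 0.21, by 2.47 (5.52-fold, adjusted p = 0.000628). Tollip, which binds Irak1, rose by 1.12 (2.18-fold, adjusted p = 6.68e-05). Irak3 and Tollip were picked out after their values were seen, as relatives of the kinases. Sigirr, a receptor that dampens Myd88 signalling, fell by 0.98 (adjusted p = 0.00077).

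**Figure D4:**
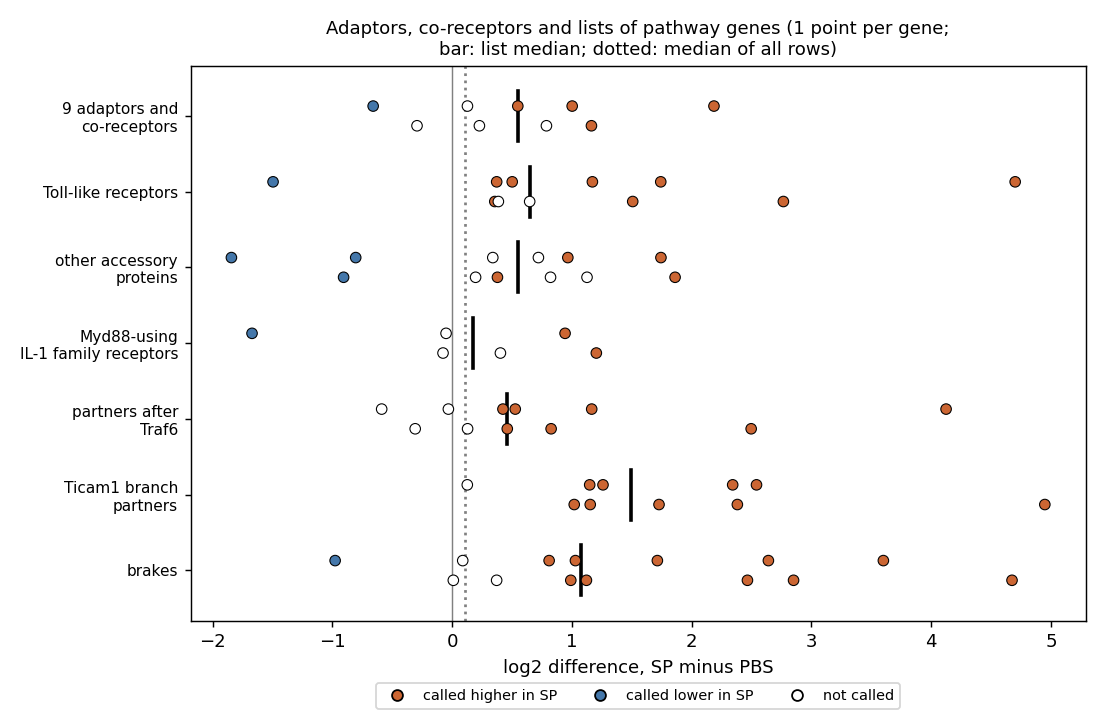
Difference of SP minus PBS in log2 units (horizontal axis) for the 9 genes and for each gene of the 6 pathway lists, 1 row of points per list, with filled points for genes called higher (orange) or lower (blue), open points for genes not called, and a bar for the median of each list. The medians run from 0.18 for the interleukin 1 family receptors to 1.49 for the Ticam1 branch, and the median of all rows is 0.10.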

How the data were processed

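Log2 expression values of 8 samples (4 PBS, 4 SP) were used as deposited. Per the study's methods and the submitters' notes, the authors used Affymetrix Expression Console, Partek and robust multi-array averaging, which corrects background, normalizes quantiles and summarises the probes of a gene. Values are relative within an array. Rows were named through RefSeq accessions (GRCm38.p6): 19915 of 24625 rows (80.9%) received a symbol.

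Groups and replicate numbers followed the sample titles. All rows were fitted with limma 3.58.1 (R 4.3.3, lmFit and eBayes, group as the only term). The two-sided p-values of all rows were adjusted together by the Benjamini-Hochberg method, and the thresholds were an adjusted p of 0.05 and, for 2-fold, a log2 difference of 1. The script was tested on simulated data. A further promoter motif is not reported here. The 18 alternatives were the methods' t-test, a robust prior, a replicate block, array weights, 2 scalings, a filter on dim rows, 1 row per symbol, each of the 8 samples left out, and, chosen after seeing the data, PBS replicate 2 and SP replicate 3 left out together and arrays centred on neutrophil markers.

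Precision is limited by 4 arrays per group. The 10 genes and all lists were chosen with earlier results of these data known. Named from each pathway list were up to 4 genes with the largest difference among those called at 2-fold and the brightest gene, and from each marker list the 2 brightest; others were named after their values were seen. Of the marker lists, the brightest genes are printed for the 2 lists of neutrophils and of monocytes and macrophages. Further named by rule were 2 profile neighbours of each member of the 10 called at 2-fold.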

Additional observations from a re-analysis of the deposited data

Results flagged for a closer look

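Each of the 9 genes was examined in both groups, 18 groups of 4 samples, for a sample far from the rest, judged by its gap to the nearest sample as a share of the range of the group (Dixon's test at the 95% level). Chance marks about 1 in 20 such groups. Both marks fell on Ticam2. In the PBS group, replicate 2 was low at 5.22, with the nearest sample at 5.92 (ratio 0.869). In the SP group, replicate 3 was low at 6.07, with the nearest sample at 7.21 (ratio 0.972).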

How the results depend on the processing

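No gene of the 9 changed sign under the 18 alternatives, and Traf6, Ly96 and Ticam2 were called under each. The count of the 9 called, 5 as reported, was 3 by the methods' t-test, which lost Myd88 (adjusted p = 0.0518) and Irak4 (0.0607). It was 8 with array weights, 8 with PBS replicate 2 and SP replicate 3 left out, and 3 to 5 with 1 sample left out. Of all rows, 44.1% were called as reported, 41.6% by the t-test, 54.7% with array weights and 41.7% with both samples left out. The share was 33.3% to 44.3% with 1 sample left out. The count at 2-fold, 3 as reported, was 1 to 3 with 1 sample left out. Of the 64 pathway genes, 46 were called as reported and 41 to 47 with 1 sample left out, and 31 at 2-fold as reported and 27 to 34. Named genes that changed sign were Il1rap, which was -0.043 with PBS replicate 2 and SP replicate 3 left out, and S100a8. The latter was 0.099 with arrays centred on their median and 0.056 with arrays centred on neutrophil markers, S100a8 being among these markers. The cause was not tested.

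Same-numbered samples did not deviate together in all pairs (r of 0.016, 0.030, 0.35 and -0.27 over all rows), so the numbers were not taken as a pairing. With the replicate block 5 of the 9 genes were called (Irak4 lost, Cd14 gained), 3 at 2-fold, and 45 of the pathway genes, 30 at 2-fold. Of all rows, 40.0% were called in that fit. The replicate 3 samples were the only ones that correlated best with their own number.

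Over all rows the reported 10860 calls became 18255 with arrays centred on their median, which moved the median difference from 0.10 to 0.38, and 4661 with arrays centred on neutrophil markers. With the latter, 4 of the 9 genes were called, against 18.9% of all rows. Myd88 (limma adjusted p = 0.0614) and Irak4 (0.332) were lost, and Cd14 (0.0255) was gained. Lbp, Hsp90b1, Sigirr and Tab2 were also no longer called in that fit. With 4 arrays in each group, the intervals of Ticam1 (up to 0.50) and Irak1 (up to 0.35) leave room for differences of that size.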

Other observations

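The profiles of the 3 genes called at 2-fold were set beside those of all named rows, each centred on its own mean over the 8 samples, and the rows at the smallest root mean square distance in log2 units were taken. The nearest to Traf6 were Rps6ka4, a kinase that phosphorylates histone H3 (distance 0.111), and Pts, an enzyme of tetrahydrobiopterin synthesis (0.112), with differences of 2.13 and 2.36 between SP and PBS. The nearest to Ly96 were Lcp2, an adaptor of immune receptor signalling (0.0869), and Oasl2, an interferon-induced gene (0.0898), with differences of 0.97 and 1.02. The nearest to Ticam2 were Itgax, an integrin chain of myeloid cells (0.128), and Adap1 (0.162), with differences of 1.25 and 1.03, and both distances were larger than those of the neighbours of Ly96. Each profile includes the difference between the groups, so a like difference shortens the distance, and nothing is drawn from them about function or control.

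Among the 9 genes themselves, Cd14 lay nearest to Ly96 (0.242) and Tirap nearest to Irak4 (0.289), while Traf6 and Irak4 lay farthest apart (1.44). Transcripts of 3 Y-linked genes, which female mice lack, were listed between 4.33 and 4.90 on these arrays. Kdm5d among them was itself called higher in SP samples (0.19, limma adjusted p = 0.0497), so small differences at this level can be called.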
